A study of Homo sapiens with 10 samples.

Results

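The ELAVL (Hu) family of RNA-binding proteins was followed through 10 RNA sequencing libraries of the human neuroblastoma line SH-SY5Y, an established neuron-like cell line of the sympathetic lineage. Its members were taken by symbol from the deposited gene table, and all 4 (ELAVL1, ELAVL2, ELAVL3 and ELAVL4, of 58174 genes) averaged 1 TPM or more and were tested. TPM is a transcript level scaled for transcript length and for the size of the library. The siTDP-43 group (3 libraries) was transfected with a pool of small interfering RNAs against TDP-43 and the siControl group (3 libraries) with a control pool, each at 50 nM for 96 hours. The N352S group (2 libraries) was homozygous for that TDP-43 substitution and the wild-type group (2 libraries) carried unaltered TDP-43, in cells of the same line from a genome-editing experiment. Replicates are described as biological, but whether they came from separate cultures or clones is not said. The p-values therefore reflect how far these libraries scatter, which may be technical, and a difference between N352S and wild-type cells cannot be told apart from one between cell clones.

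ELAVL proteins carry RNA recognition motifs that bind U-rich and AU-rich stretches, mostly in introns and 3′ untranslated regions, and they are known to stabilise transcripts, change their translation and, in neurons, steer alternative splicing. ELAVL1 (HuR) is made in nearly all cells, whereas ELAVL2 (HuB), ELAVL3 (HuC) and ELAVL4 (HuD) are mainly neuronal and appear with neuronal differentiation. TDP-43, encoded by TARDBP, is a nuclear RNA-binding protein that prefers GU-rich RNA and represses cryptic exons, and ELAVL3 is among the neuronal transcripts reported elsewhere to lose RNA when TDP-43 is missing.

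The 4 genes lie at 4 loci of the hg38 assembly, with positions from GENCODE release 29. ELAVL1 (ENSG00000066044) lies on the minus strand of chromosome 19 at 7958579 to 8005659, and ELAVL3 (ENSG00000196361) on the same strand and chromosome at 11451326 to 11481046. ELAVL2 (ENSG00000107105) lies on the minus strand of chromosome 9 at 23690104 to 23826337, and ELAVL4 (ENSG00000162374) on the plus strand of chromosome 1 at 50048014 to 50203786. A stretch of 60 coding bases from 1 GENCODE transcript per gene is shown because the similarity of the members bears on how well reads can be assigned to each. It is the ungapped stretch in which the neuronal members are most alike, and capitals mark bases that differ from ELAVL4.
ELAVL1: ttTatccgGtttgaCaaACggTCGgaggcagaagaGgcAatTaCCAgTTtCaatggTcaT
ELAVL2: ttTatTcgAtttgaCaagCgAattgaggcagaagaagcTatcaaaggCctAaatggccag
ELAVL3: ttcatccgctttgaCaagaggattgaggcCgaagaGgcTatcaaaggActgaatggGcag
ELAVL4: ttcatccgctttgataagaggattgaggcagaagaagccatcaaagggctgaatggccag
In this stretch ELAVL3 differs from ELAVL4 at 6 bases, ELAVL2 at 9 and ELAVL1 at 19. Over the whole aligned coding sequence, ELAVL4 shares 77.9% of bases with ELAVL2, 76.4% with ELAVL3 and 69.9% with ELAVL1. The longest run of identical bases between any transcripts of a pair of members was 31 (ELAVL1 and ELAVL2), and no stretch of 50 bases was shared by annotated transcripts of any pair. Read length is not given in the sources used here, so the share of reads that several members could claim was not computed. Of the genes that overlap a member, none exceeded 2.6 TPM in any library. The highest, AC008481.3, overlaps ELAVL3 on the same strand. It averaged 0.253 TPM in siTDP-43 and 1.25 TPM in siControl libraries, and 0.0 TPM in both N352S and wild-type libraries.

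The 9 markers of noradrenergic neuroblastoma cells that were summed (such as HAND2, GATA3 and DBH) all had a mean of at least 1 TPM. Their sum was 5474 to 5670 TPM in siTDP-43 and 4785 to 4966 TPM in siControl libraries, and 4239 to 4526 TPM in N352S and 4712 to 4790 TPM in wild-type libraries. The sum joins genes that moved in opposite directions. CHGA, the most abundant of them on average, rose to 2337 TPM in siTDP-43 libraries, against 1646 TPM in siControl libraries, and fell to 874.8 TPM in N352S libraries, against 1151 TPM in wild-type libraries. ISL1 fell to 204.5 TPM in siTDP-43 libraries, against 246.0 TPM in siControl libraries (both named after their values were seen). Among markers of other cell types, 5 of 5 fibroblast genes averaged 1 TPM or more over the 10 libraries. They summed to 81.2 to 85.4 TPM in siTDP-43 and 58.3 to 65.1 TPM in siControl libraries. In N352S and wild-type libraries they summed to 61.3 to 62.1 and 56.5 to 75.5 TPM. LUM was the largest part of the sum in the siRNA libraries, at 48.99 to 51.86 TPM in siTDP-43 and 27.81 to 37.73 TPM in siControl libraries. DCN lay the other way, uncalled, at 1.23 to 2.06 TPM in siTDP-43 and 2.35 to 2.81 TPM in siControl libraries. COL1A2 lay between 0.1 and 0.51 TPM in the siRNA libraries. Schwann cell markers (3 of 4 at 1 TPM or more, SOX10 below) summed to 4.15 to 4.90 TPM in siTDP-43 and 5.36 to 6.66 TPM in siControl libraries, and to 8.07 to 9.48 TPM in N352S and 9.25 to 10.7 TPM in wild-type libraries. Epithelial markers (1 of 4 at 1 TPM or more) summed to 1.21 to 1.40 TPM in siTDP-43 and 0.86 to 1.37 TPM in siControl libraries, and to 4.78 to 5.12 TPM in N352S and 2.07 to 2.56 TPM in wild-type libraries. Astrocyte markers (0 of 3) and immune markers (1 of 3) summed to at most 2.73 TPM in any library, and CDH1, KRT8, PTPRC and AIF1 were at or near 0. Mitochondrially encoded genes took 13.8 ± 0.38% of TPM in N352S and 14.4 ± 0.55% in wild-type libraries. The part of these shifts in the ELAVL differences was not tested, and in bulk libraries fewer cells of a type and less RNA per cell cannot be told apart.

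The neuronal members were lower in TDP-43-depleted cells, and the ubiquitous ELAVL1 did not pass the test. ELAVL3 fell to 33.7% of its control level, ELAVL4 to 54.5% and ELAVL2 to 69.0%. All 3 neuronal members were called lower at a limma adjusted p under 0.05 over all 17118 tested genes, of which 19.8% were called lower and 26.0% were called in either direction. As a check of the labels, the siRNA target TARDBP had 62.26, 63.12 and 67.67 TPM in siTDP-43 libraries, against 255.53, 255.57 and 256.3 TPM in siControl libraries, and so was left at 25.2% of its control level.

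ELAVL3, a marker of young and mature neurons, had 32.38, 36.23 and 35.49 TPM in siTDP-43 libraries, against 103.43, 111.04 and 94.86 TPM in siControl libraries. The groups lay far apart, with the highest depleted library below the lowest control. All 3 neuronal members had groups that did not overlap, lower in siTDP-43 cells, as did 31.7% of all tested genes (43.6% in either direction). The siTDP-43 mean of 34.7 ± 2.04 TPM was 33.7% of the siControl mean of 103.1 ± 8.09 TPM (SD, n = 3 each). On the log2(TPM + 1) scale, which understates changes of low genes, the difference was -1.54 ± 0.06 (SE; limma adjusted p = 2.9e-06), the 26th lowest of the tested genes.

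ELAVL4, which stabilises growth-associated transcripts such as GAP43 in neurons, was the most abundant member in every library. It had 121.69, 127.35 and 126.26 TPM in siTDP-43 libraries, against 234.59, 231.78 and 222.38 TPM in siControl libraries. The groups did not overlap, and the libraries within each lay close together. Its mean fell to 125.1 ± 3.0 TPM in siTDP-43 libraries, 54.5% of the 229.6 ± 6.39 TPM in siControl libraries (log2 difference -0.87 ± 0.06; limma adjusted p = 2.8e-05), the 170th lowest difference.

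ELAVL2, the least abundant member, had 16.3, 18.43 and 17.15 TPM in siTDP-43 libraries, against 21.38, 25.81 and 27.98 TPM in siControl libraries. The siControl libraries were more spread than the siTDP-43 libraries, and the groups did not overlap. The siTDP-43 mean was 17.3 ± 1.07 TPM and the siControl mean 25.1 ± 3.36 TPM, a level of 69.0% (log2 difference -0.50 ± 0.10; limma adjusted p = 0.0074).

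ELAVL1, the ubiquitous member, had 62.89, 70.78 and 64.36 TPM in siTDP-43 libraries, against 62.27, 61.77 and 63.15 TPM in siControl libraries. The groups overlapped, with siTDP-43 replicate 2 above the rest. Its log2 difference was 0.08 ± 0.05 (limma adjusted p = 0.26), with a 95% interval of the fit from -0.03 to 0.19, or 98% to 114% of control on that scale. This member depends on the scaling: it was called higher under median-of-ratios scaling (0.16; limma adjusted p = 0.031) and quantile normalization (0.17; limma adjusted p = 0.037), which move the median of all tested genes from -0.08 to 0.00. Mitochondrially encoded genes, a sign of RNA quality, took 15.8 ± 0.34% of TPM in siTDP-43 and 13.3 ± 1.19% in siControl libraries, and with these genes left out the 3 neuronal members were still called lower and ELAVL1 was not called.

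**Figure D1:**
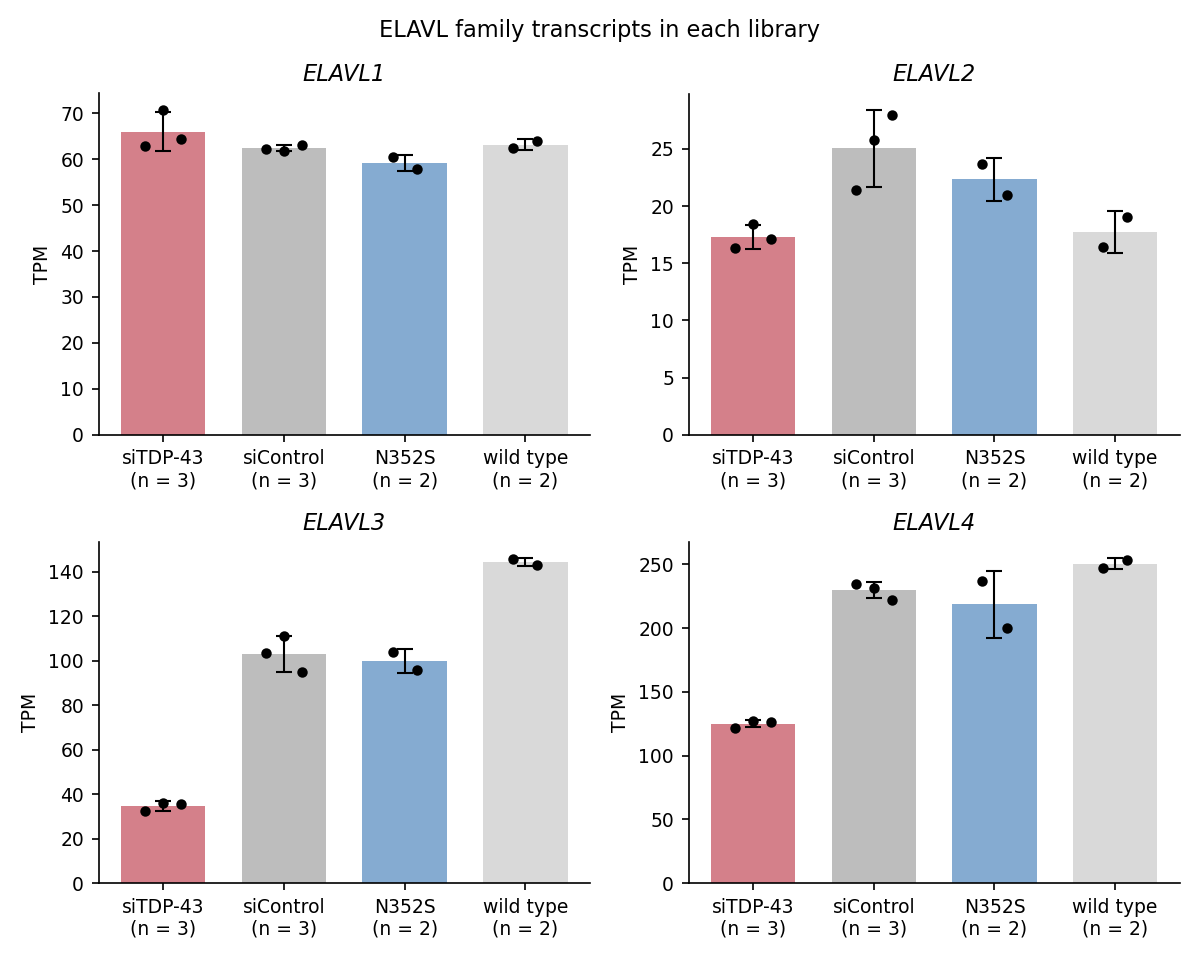
TPM of each ELAVL member (panels) by library. Points are libraries, bars their group mean and whiskers the SD, for 3 siTDP-43, 3 siControl, 2 N352S and 2 wild-type libraries. ELAVL3 averaged 34.7 TPM in siTDP-43 and 103.1 TPM in siControl libraries, while ELAVL1 lay between 57.9 and 70.78 TPM in all 10.

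Ratios within a library do not depend on how the library was scaled. The neuronal members together made up 73.0%, 72.0% and 73.5% of all ELAVL TPM in siTDP-43 libraries, against 85.2%, 85.6% and 84.5% in siControl libraries. All 3 depleted libraries lay below every control, a difference of -12.3 percentage points, and the two-sided exact permutation p of 0.1 is the smallest that 3 against 3 libraries allow. The summed ELAVL level was 243.1 ± 9.77 TPM in siTDP-43 and 420.2 ± 11.1 TPM in siControl libraries. The make-up shifted among the neuronal members as well. ELAVL3 made up 14.3% of ELAVL TPM in siTDP-43 and 24.5% in siControl libraries, and ELAVL4 made up 51.5% in siTDP-43 and 54.6% in siControl libraries. The share of ELAVL2 went the other way, at 7.11% in siTDP-43 and 5.97% in siControl libraries, with 3 of 3 depleted libraries above every control (exact permutation p = 0.1). Its own level fell to 69.0% of control, a smaller fall than those of ELAVL3 and ELAVL4. The log2 ratio of ELAVL2 to ELAVL1 differed by -0.61, with 3 of 3 depleted libraries below every control (exact permutation p = 0.1). The ratio of ELAVL4 to ELAVL3 TPM was 3.61 ± 0.13 in siTDP-43 libraries and 2.23 ± 0.13 in siControl libraries, higher in 3 of 3 depleted libraries (exact permutation p = 0.1). By mean level the members ran ELAVL4, ELAVL1, ELAVL3, ELAVL2 in siTDP-43 libraries and ELAVL4, ELAVL3, ELAVL1, ELAVL2 in the other 3 groups, so the ubiquitous member was above ELAVL3 in 1 of the 4 groups, the depleted cells. Neighbours in these orders did not overlap between their libraries in any of the 4 groups.

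**Figure D2:**
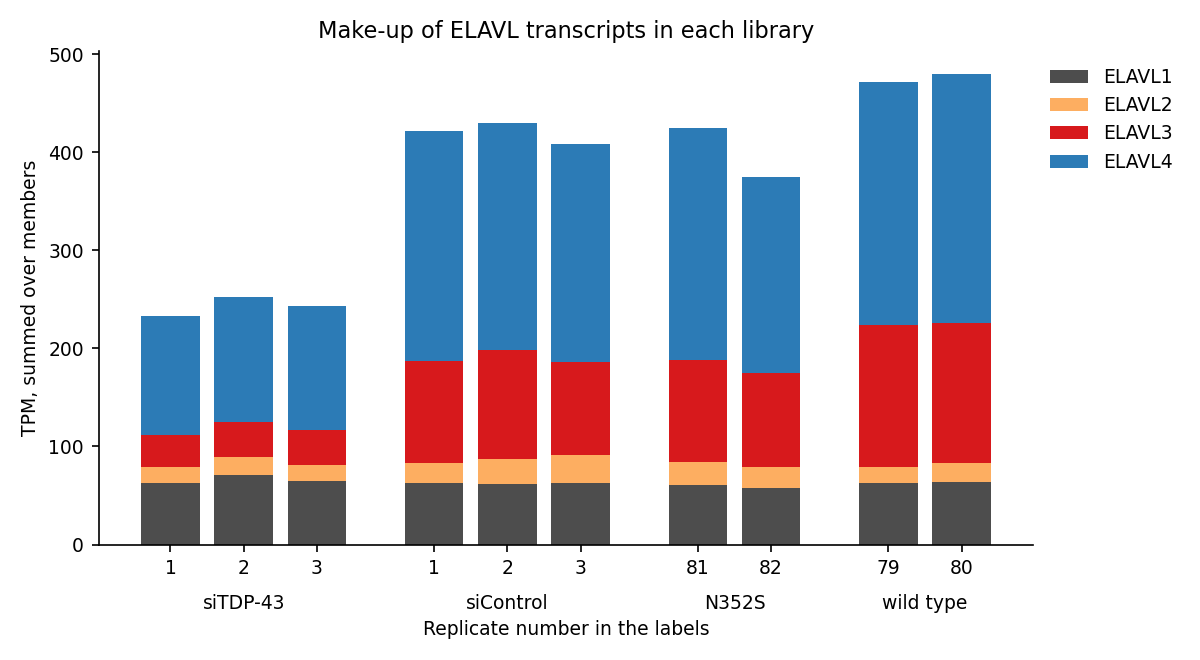
TPM of the ELAVL members stacked for each of the 10 libraries, by group. The neuronal members made up 72.9% of the stack on average in siTDP-43 libraries, 85.1% in siControl, 85.2% in N352S and 86.7% in wild-type libraries.

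In N352S cells, ELAVL3 alone among the members was called, at a smaller difference. Of all tested genes 11.9% were called lower in this comparison and 20.2% in either direction. TARDBP itself had 122.8 and 122.33 TPM in N352S libraries, against 195.53 and 205.39 TPM in wild-type libraries. ELAVL3 had 103.83 and 96.03 TPM in N352S libraries, against 145.67 and 143.33 TPM in wild-type libraries, so that the groups stood well apart. Its mean fell to 99.9 ± 5.52 TPM in N352S cells, 69.2% of the wild-type mean of 144.5 ± 1.65 TPM (SD, n = 2 each; log2 difference -0.53 ± 0.08; limma adjusted p = 0.002).

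The other neuronal members did not pass the test. The fit takes 1 spread per gene from all 4 groups, so intervals and p-values for N352S cells rest partly on the scatter of the siRNA libraries. For ELAVL4 the SD was 26.0 TPM in N352S and 4.37 TPM in wild-type libraries, beside 3.0 TPM in siTDP-43 and 6.39 TPM in siControl libraries. ELAVL4 had 236.96 and 200.13 TPM in N352S libraries, against 247.27 and 253.45 TPM in wild-type libraries. The N352S libraries lay further apart from each other than the higher of them lay from wild type, and the log2 difference was -0.20 ± 0.07 (limma adjusted p = 0.077; 95% interval of the fit -0.36 to -0.04). It was called without N352S replicate 81 (-0.32; limma adjusted p = 0.0066), when the higher library is left out. ELAVL2 had 23.66 and 20.98 TPM in N352S libraries, against 16.41 and 19.05 TPM in wild-type libraries, a log2 difference of 0.32 ± 0.13 in the other direction that did not pass (limma adjusted p = 0.11; 95% interval 0.03 to 0.60). ELAVL1 had 60.45 and 57.9 TPM in N352S libraries, against 62.34 and 63.97 TPM in wild-type libraries (log2 difference -0.09 ± 0.06; limma adjusted p = 0.3; 95% interval -0.22 to 0.04). The libraries of these groups did not overlap for any of the 4 members, with ELAVL2 higher and the others lower in N352S cells. The same held for 60.1% of all tested genes, 34.7% lower and 25.4% higher.

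The neuronal share of ELAVL TPM was 85.8% and 84.6% in N352S libraries, against 86.8% and 86.7% in wild-type libraries, a difference of -1.56 percentage points. Both N352S libraries were lower, and the exact permutation p of 0.333 is the smallest that 2 against 2 libraries allow. Within the family, ELAVL3 made up 24.4% and 25.6% in N352S libraries, against 30.9% and 29.9% in wild-type libraries. ELAVL4 averaged 54.6% in N352S and 52.6% in wild-type libraries, and ELAVL2 averaged 5.58% in N352S and 3.72% in wild-type libraries.

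**Figure D3:**
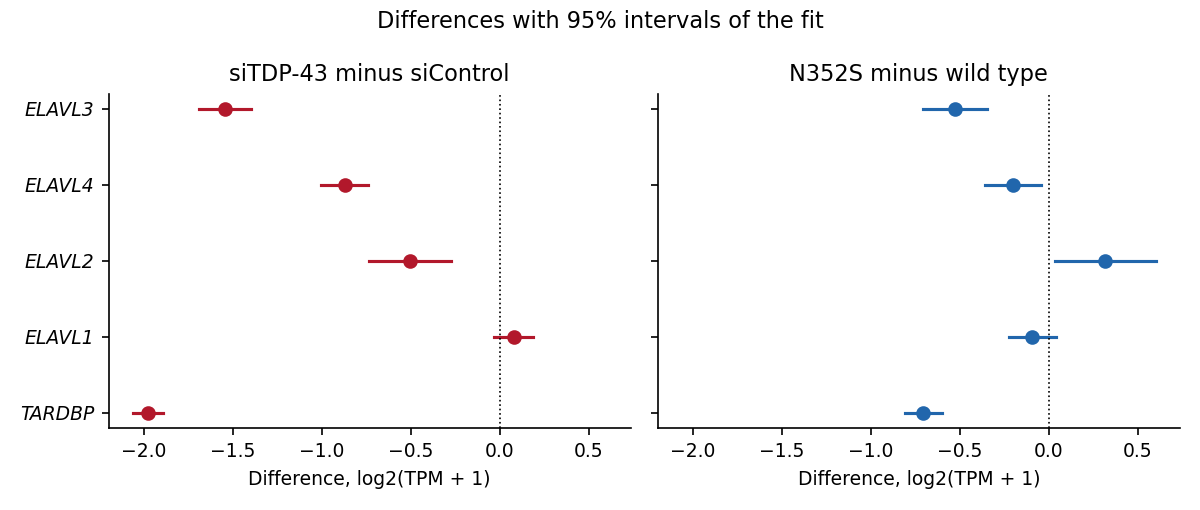
Difference on the log2(TPM + 1) scale (points) with the 95% interval of the fit (lines) for the ELAVL members and TARDBP, for siTDP-43 minus siControl (left) and N352S minus wild type (right). ELAVL3 stood at -1.54 in the knockdown and -0.53 in N352S cells, and the intervals of ELAVL1 crossed 0 in both.

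The comparisons share no libraries, so the difference between them could be tested. It was called for each neuronal member, where 22.0% of all tested genes were called in either direction (13.8% lower and 8.20% higher). The knockdown difference less the N352S difference was -1.01 ± 0.10 for ELAVL3 (limma adjusted p = 2.1e-04), -0.67 ± 0.09 for ELAVL4 (limma adjusted p = 0.001) and -0.82 ± 0.16 for ELAVL2 (limma adjusted p = 0.0071). For ELAVL1 it was 0.17 ± 0.07 and not called (limma adjusted p = 0.14; called under quantile normalization, adjusted p = 0.045).

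Set across the 4 groups, which were not made in 1 experiment, the levels of ELAVL3 ran from siTDP-43 (32.38 to 36.23 TPM) through N352S (96.03 to 103.83 TPM) and siControl (94.86 to 111.04 TPM) to wild type (143.33 to 145.67 TPM). N352S and siControl cells overlapped in this order and the other neighbours did not. ELAVL4 ran from siTDP-43 through N352S and siControl to wild type as well, again with overlap between N352S and siControl libraries. ELAVL2 ran from siTDP-43 and wild-type libraries, which overlapped, to N352S and siControl libraries, which also overlapped. For ELAVL1 the N352S libraries were lowest and the other 3 groups overlapped. Wild-type and siControl cells differ in transfection and in origin, which cannot be told apart here.

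Genes whose pattern was most like that of a member were sought among 10799 protein-coding genes that averaged 5 TPM or more, by the root mean square difference of their mean-centred log2(TPM + 1) values over the 10 libraries. The 3 genes closest to ELAVL3 were TIMP3, which encodes an inhibitor of matrix metalloproteinases, ZNF853, a zinc finger gene, and PTPRU, a receptor tyrosine phosphatase, at 0.18, 0.25 and 0.26 log2 units. TIMP3 averaged 4.88 TPM in siTDP-43 and 13.0 TPM in siControl libraries, and 12.7 TPM in N352S and 16.8 TPM in wild-type libraries, and so shared the order of ELAVL3. The genes closest to ELAVL4 were PPP1R26, H2AFV, a histone H2A variant gene, and the tyrosine kinase gene SYK, at 0.10, 0.10 and 0.11 log2 units. H2AFV averaged 176.7 TPM in siTDP-43 and 324.2 TPM in siControl libraries. Closest to ELAVL2 were IPMK, an inositol phosphate kinase gene, SYT1, the calcium sensor of synaptic vesicles, and TMEM64, at 0.06, 0.07 and 0.08 log2 units. SYT1 averaged 26.0 TPM in siTDP-43 and 38.3 TPM in siControl libraries, and 33.9 TPM in N352S and 26.6 TPM in wild-type libraries, a pattern with opposite directions in the 2 comparisons as in ELAVL2. Closest to ELAVL1 were ZNF213, CENPX, a kinetochore gene, and C1orf198, at 0.03, 0.04 and 0.04 log2 units. ELAVL3 and ELAVL4 lay 0.39 log2 units apart and neither was among the 3 closest to the other. When likeness was measured by correlation instead, TIMP3 stayed first for ELAVL3 and each of ELAVL3 and ELAVL4 was among the 3 genes most like the other.

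Of 17 other neuronal RNA-binding proteins listed, 13 were tested, and 4 were called lower and 1 higher in siTDP-43 cells (median log2 difference -0.05, against -0.08 over all tested genes). These counts are near the background of all tested genes, 19.8% lower and 6.19% higher. MSI2, a Musashi protein, fell to 128.1 ± 0.57 TPM in siTDP-43 cells, against 157.5 ± 4.41 TPM in siControl cells. The neuronal splicing factor gene SRRM4 fell to 5.59 TPM in siTDP-43 cells, against 7.15 TPM in siControl cells, and CELF5 to 4.59 TPM in siTDP-43 cells, against 6.94 TPM in siControl cells. The 13 log2 differences in the knockdown lay between -0.51 and 0.13, beside -1.54 for ELAVL3 and -0.87 for ELAVL4. With the replicate number as a block 2 were lower, and SRRM4 was not called. The 1 gene called higher, RBFOX2 (log2 difference 0.13; named after its values were seen), was not called when any 1 of the 6 siRNA libraries or either wild-type library was left out. In N352S cells 1 rose and 1 fell, where 8.28% of all tested genes were called higher and 11.9% lower. CELF4 rose to 31.8 TPM in N352S cells, against 19.5 TPM in wild-type cells. Its log2 difference of 0.68 was larger in size than that of any ELAVL member in these cells. The splicing regulator gene NOVA2 fell to 8.52 TPM in N352S cells, against 10.97 TPM in wild-type cells. The NOVA2 call was lost without N352S replicate 82 or wild type replicate 79, and in a fit of only the N352S and wild-type groups.

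Proteins that bind AU-rich or related elements and promote decay or repression, some of them competitors of ELAVL proteins, were called in both directions. In siTDP-43 cells 3 of 13 fell and 1 rose (median log2 difference -0.06, against -0.08 over all tested genes), near the background of 19.8% lower and 6.19% higher. KHSRP, which recruits decay factors, fell to 202.9 ± 4.4 TPM in siTDP-43 cells, against 266.3 ± 16.9 TPM in siControl cells (log2 difference -0.39; limma adjusted p = 6.3e-04). AUH stood at 10.5 TPM in siTDP-43 and 12.9 TPM in siControl cells, and CELF1 rose to 90.6 TPM in siTDP-43 cells, against 78.3 TPM in siControl cells. With the replicate block 1 of these genes was lower, and AUH was not called. In N352S cells 3 fell and 1 rose, beside 11.9% and 8.28% of all tested genes, and 0 or 1 was lower in 15 of 21 alternatives, among them without any of the siControl, N352S or wild-type libraries or siTDP-43 replicate 1 or 3. ZFP36L2, of the family of decay factors around tristetraprolin, rose to 27.0 TPM in N352S cells, against 21.2 TPM in wild-type cells. The ZFP36L2 call was lost without N352S replicate 82 or wild type replicate 80, and in a fit of only the N352S and wild-type groups. HNRNPD (AUF1) averaged 444.5 TPM in N352S and 491.8 TPM in wild-type cells (limma adjusted p = 0.044). CELF1 averaged 61.0 TPM in N352S and 69.7 TPM in wild-type cells (limma adjusted p = 0.048).

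The partners of ELAVL1 hold proteins that carry it across the nuclear envelope and enzymes that modify it. In siTDP-43 cells 6 of 12 fell and the other 6 were not called (median log2 difference -0.13, against -0.08 over all tested genes), where 19.8% of all tested genes were called lower and 6.19% higher. PRKCD, a protein kinase C gene, fell to 2.93 ± 0.41 TPM in siTDP-43 cells, against 6.17 ± 0.49 TPM in siControl cells (log2 difference -0.87; limma adjusted p = 4.7e-04). The cell cycle kinase gene CDK1 fell to 115.9 TPM in siTDP-43 cells, against 136.2 TPM in siControl cells, and the import receptor gene TNPO2 to 102.4 TPM, against 115.2 TPM in siControl cells. Under median-of-ratios scaling and under quantile normalization 2 fell and 1 rose, and with the replicate block 2 fell. TNPO2 was not called in any of these. In N352S cells 3 fell and 1 rose, beside 11.9% and 8.28% of all tested genes. MAPKAPK2, a kinase gene of the p38 stress pathway, rose to 58.7 TPM in N352S cells, against 42.5 TPM in wild-type cells. ANP32B, whose protein binds ELAVL1 for export, fell to 179.8 ± 10.2 TPM, against 228.8 ± 4.22 TPM in wild-type cells, and TNPO1 to 104.6 TPM, against 139.9 TPM in wild-type cells. Without wild type replicate 79 fewer fell. TNPO1 was not called there, nor in a fit of only the N352S and wild-type groups.

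Of the transcripts reported elsewhere as ELAVL1 targets, 10 of 23 tested fell in siTDP-43 cells and 2 rose (median log2 difference -0.15, against -0.08 over all tested genes), where 19.8% of all tested genes were called lower and 6.19% higher. Lower calls outnumbered higher ones over all genes too, at 76.2% of the knockdown calls. Those that fell include the transcription factor gene MYC (27.0 TPM in siTDP-43 and 35.8 TPM in siControl cells) and the cyclin gene CCNB1 (177.1 TPM in siTDP-43 and 240.2 TPM in siControl cells). CDKN1A, the cell cycle inhibitor p21, rose to 59.6 ± 6.86 TPM, against 33.6 ± 4.6 TPM in siControl cells. The other gene called higher, CCND1 (named after its values were seen), was not called without siTDP-43 replicate 1 or 3 or siControl replicate 1 or 2. In N352S cells 6 fell and 3 rose, where 58.9% of the calls over all genes were lower. MYC fell to 38.6 TPM in N352S cells, against 57.2 TPM in wild-type cells, the survival gene BCL2 to 9.88 TPM, against 14.4 TPM in wild-type cells, and the hypoxia factor gene HIF1A to 134.4 TPM, against 193.1 TPM in wild-type cells. None or 1 rose without N352S replicate 81, N352S replicate 82 or wild type replicate 79, and 3 fell in a fit of only these groups.

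Among transcripts reported elsewhere as targets of neuronal ELAVL proteins, 9 of 18 tested fell in siTDP-43 cells and 3 rose, where 19.8% of all tested genes were called lower and 6.19% higher. The median log2 difference was -0.19, against -0.08 over all tested genes. GAP43, the growth cone protein gene, fell to 46.7 ± 0.8 TPM in siTDP-43 cells, against 74.2 ± 1.91 TPM in siControl cells (log2 difference -0.66; limma adjusted p = 8.2e-06). ACHE, which encodes acetylcholinesterase, fell to 3.39 ± 0.14 TPM, against 7.36 ± 0.66 TPM in siControl cells. ID1, an inhibitor of basic helix-loop-helix factors, rose to 94.2 ± 10.9 TPM, against 52.8 ± 4.14 TPM in siControl cells. GAP43, ACHE and ID1 kept their calls in all 22 alternatives. Over these alternatives 6 to 10 of the listed genes were called lower and 2 to 4 higher.

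In N352S cells 2 of the 18 fell and 4 rose (median log2 difference 0.00, against -0.03 over all tested genes), where 11.9% of all tested genes were called lower and 8.28% higher. ID1 rose to 81.9 ± 3.60 TPM in N352S cells, against 26.5 ± 0.33 TPM in wild-type cells (log2 difference 1.59; limma adjusted p = 1.9e-05). APP, the amyloid precursor gene, rose to 377.0 ± 13.8 TPM, against 289.9 ± 7.01 TPM in wild-type cells. GAP43 rose to 153.8 ± 0.24 TPM, against 128.3 ± 3.76 TPM in wild-type cells (log2 difference 0.26; limma adjusted p = 0.0029). GAP43, ACHE and NEFM were called in opposite directions in the knockdown and in N352S cells. ACHE was at a log2 difference of -0.93 in siTDP-43 cells and 0.42 in N352S cells (limma adjusted p = 0.019), and NEFM, a neurofilament gene, at 0.65 in siTDP-43 cells and -0.38 in N352S cells (limma adjusted p = 0.023; both named here after their values were seen). The genes called lower in N352S cells were NEFM and SATB1, with SATB1 also at -0.38, and without N352S replicate 82 or wild type replicate 80 only 1 gene was called lower.

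**Figure D4:**
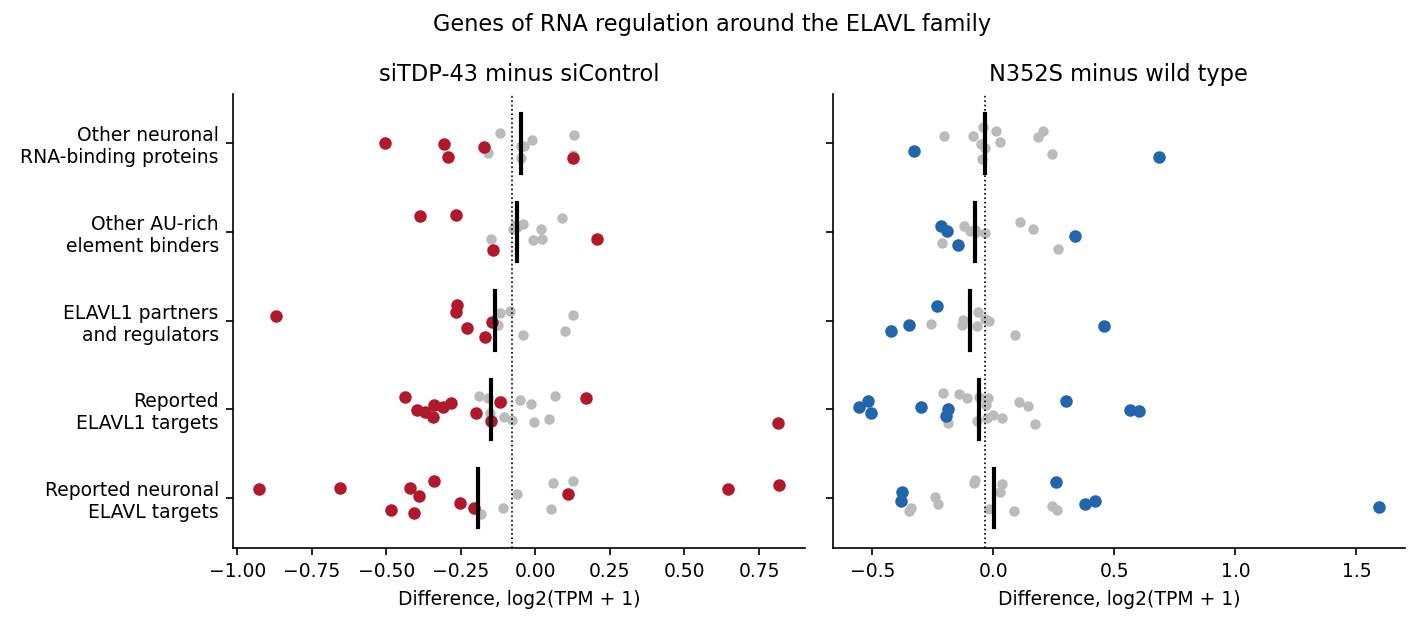
Difference on the log2(TPM + 1) scale of each tested gene (points; coloured where called, grey where not) in 5 gene lists, for siTDP-43 minus siControl (left) and N352S minus wild type (right), with list medians (bars) and the median of all tested genes (dotted line). Among reported neuronal ELAVL targets 9 fell and 3 rose in siTDP-43 cells.

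The genes around each member were read beside the background of all tested genes, 19.8% lower and 6.19% higher in the knockdown and 11.9% lower and 8.28% higher in N352S cells. The 10 nearest tested protein-coding genes on each side of ELAVL3 had a median log2 difference of 0.03 in siTDP-43 cells, with 2 of 20 called lower and 5 higher, and they lay between -0.37 and 0.36. Around ELAVL4 the median was -0.12, with 8 of 20 lower and the other 12 not called, and the lowest at -0.55 was above the -0.87 of ELAVL4. Around ELAVL2 5 of 20 were lower and 4 higher (median -0.06), with the lowest at -0.51 beside the -0.50 of ELAVL2, and around ELAVL1 1 was lower and 4 higher (median 0.06). In N352S cells the neighbours of ELAVL3 had a median of 0.03, with 1 lower and 3 higher, and lay between -0.33 and 0.53, so that the highest was as far from 0 as ELAVL3 at -0.53. Those of ELAVL4 had a median of 0.14, with 2 lower and 3 higher, and lay between -1.13 and 0.52, beside -0.20 for ELAVL4. Those of ELAVL2 lay between -0.52 and 1.51 (median 0.01), beside 0.32 for ELAVL2, with 1 lower and 1 higher. Those of ELAVL1 lay between -0.32 and 1.27 (median 0.03), with 2 lower.

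**Figure D5:**
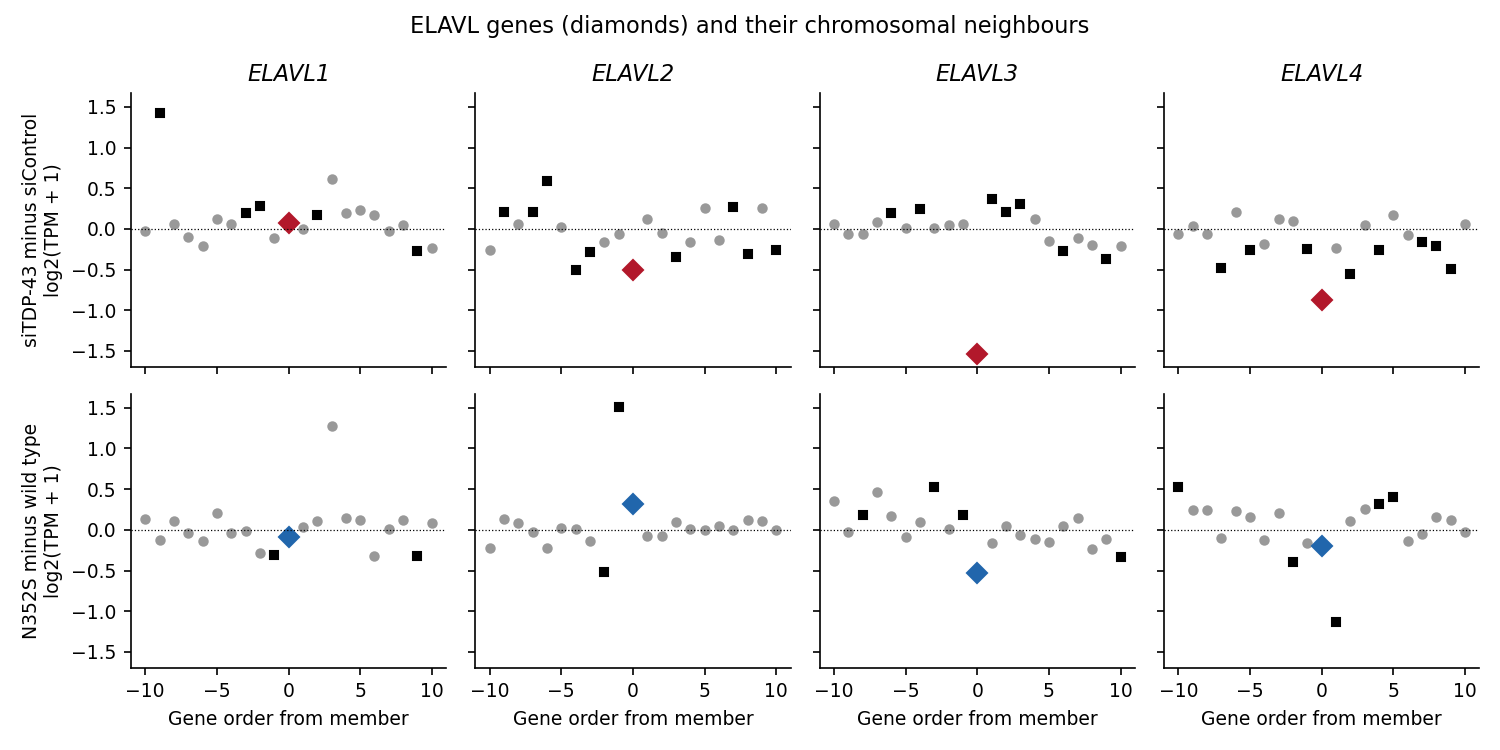
Difference on the log2(TPM + 1) scale of each ELAVL gene (diamonds) and of the 10 nearest tested protein-coding genes on each side (squares where called, circles where not), in gene order, for siTDP-43 minus siControl (top) and N352S minus wild type (bottom). In siTDP-43 cells ELAVL3, at -1.54, lay below all 20 of its neighbours, whose median was 0.03.

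In the transcripts used, the hexamer TGTGTG (GU-rich in RNA, searched on the transcript strand with overlaps counted) was present at 1 site in ELAVL1 and in no neuronal member, while 67.2% of 12679 transcripts of tested protein-coding genes held it. The site in the 3′ untranslated region of ELAVL1 on chromosome 19 is shown as the only match, with the hexamer in capitals.
ELAVL1 site: ttactgaggggcTGTGTGcgcgatccttgc
Introns were not searched, since no genome sequence was used. The pentamer ATTTA, the core of AU-rich elements, occurred 17 times in ELAVL2, 13 times in ELAVL1, 9 times in ELAVL3 and 1 time in ELAVL4, whose transcript holds 227 bases after the coding sequence. Per kb this was 4.47 in ELAVL2, more than in 99.0% of the transcripts searched, 2.16 in ELAVL1, 1.90 in ELAVL3 and 0.63 in ELAVL4, and the median was 0.96. ATTTA was present in 78.9% of the transcripts. Of the transcripts used, 1 per gene, that of ELAVL2 thus held the most ATTTA per length and that of ELAVL4 the least. The 3′ untranslated regions used for ELAVL2, ELAVL3 and ELAVL1 were far longer than that of ELAVL4, at 2453, 3203 and 4907 bases. Other transcripts of these genes were not searched for either motif, so the counts do not describe the genes as a whole.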

How the data were processed

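The deposited values were TPM per gene. Per the submitters' processing notes, the authors used RSEM, STAR and hg38, with no version stated. Per the labels' protocols, an Illumina TruSeq kit was applied to total RNA. TPM keep no read depth, so no counting error could be given and a count test was not used. Each library summed to 999999 to 1000000 TPM, 16711 to 17398 genes reached 1 TPM, and replicates correlated at 0.977 to 0.99 across genes on the log2 scale.

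The 17118 of 58174 genes averaging 1 TPM or more were tested on log2(TPM + 1) with limma 3.58.1 (R 4.3.3; eBayes with trend, all 4 groups in 1 fit, 6 residual degrees of freedom) and Benjamini-Hochberg adjustment, called at an adjusted p under 0.05. The fit was tested on simulated data with 200 genes changed in each comparison. It recovered 52.2% of the simulated 1.5-fold changes in both comparisons. Of 2-fold changes it recovered 74.6% for the knockdown and 71.6% for N352S cells, and of 3-fold changes 89.4% and 77.3%. False calls made up 5.88% of the simulated knockdown calls and 6.29% of the simulated N352S calls. Only 200 of 17118 genes were changed in each simulated comparison, while 26.0% and 20.2% were called in the data. The adjustment is stricter when fewer genes change, and the simulated noise was drawn independently for each gene. These rates therefore need not hold for the data. Family shares used exact permutation tests (scipy 1.17.1). Coding sequences were aligned with MAFFT 7.526 in place of proteins. Motifs were counted in 1 annotated transcript per gene (GENCODE 29) in place of whole genes. Neither proteins nor a genome was used here.

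The members and gene lists were chosen with earlier results of these data known, so list counts are descriptions. Of the noradrenergic and Schwann cell marker lists, 1 gene each is not reported here and was left out of the sums. The genes named by a rule set beforehand are the ELAVL members, TARDBP, up to 3 called genes with the smallest adjusted p in each list and comparison, and the 3 genes most like each member. RBFOX2, CCND1, CHGA, ISL1, LUM, DCN, COL1A2, NEFM and SATB1, and ACHE in N352S cells, were named after their values were seen. Other cell type markers and the overlapping gene AC008481.3 were named outside the rule as well. siTDP-43 and siControl libraries share replicate numbers. Once group means were removed, same-numbered libraries correlated at 0.34, 0.14 and 0.20, and differently numbered ones at -0.27 to 0.091. The numbers may therefore pair them, but values with group means removed are not independent, so these correlations cannot settle it. The main fit and the p-values printed from it did not use the numbers, which entered only in the alternative with a replicate block. The numbers 79 to 82 of the edited cells pair none. Alternatives covered pseudocounts, filters, scaling, the fit, the replicate block, the threshold and each library left out.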

Additional observations from a re-analysis of the deposited data

Results flagged for a closer look

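The difference of each neuronal member in the knockdown was set against that in N352S cells, and the test of that contrast passed for ELAVL3 (-1.01), ELAVL4 (-0.67) and ELAVL2 (-0.82 on the log2 scale). ELAVL3 was called lower in both comparisons, by -1.54 in siTDP-43 and -0.53 in N352S cells. ELAVL4 was called lower in siTDP-43 cells alone. ELAVL2 was called lower in siTDP-43 cells and stood above wild type, uncalled, in N352S cells. TDP-43 transcripts were at 25.2% of control in siTDP-43 cells and 61.1% of wild type in N352S cells, and the part of that difference in these contrasts was not tested.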

How the results depend on the processing

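ELAVL2, ELAVL3 and ELAVL4 were called lower in siTDP-43 cells under all 22 alternatives, ELAVL3 in N352S cells under all 21, and the contrast between the comparisons for these 3 members under all 20. No result reversed. ELAVL1 was called in siTDP-43 cells after quantile normalization (0.17) or median-of-ratios scaling (0.16), and its contrast under quantile normalization (0.25). ELAVL4 in N352S cells ranged from -0.32 to -0.079 with 1 library left out, and was called without N352S replicate 81. Over the alternatives, the limma adjusted p of the knockdown rose to at most 0.0034 for ELAVL3, 0.0039 for ELAVL4 and 0.030 for ELAVL2. The replicate block gave 857 genes higher and 2697 lower in siTDP-43 cells, against 1059 and 3389 without it, and changed no member's call. The lower share of those calls was 76.2%, against 51.1% after quantile normalization (2015 lower, 1932 higher), 51.8% after median-of-ratios scaling (2076 lower, 1935 higher) and 65.8% without mitochondrial genes. Of the N352S calls 58.9% were lower, against 49.2% after median-of-ratios scaling (1726 lower, 1780 higher). Of the calls for the contrast 62.7% were lower, against 49.3% after quantile normalization (1944 lower, 2001 higher), 52.3% after median-of-ratios scaling and 52.6% without mitochondrial genes. At an adjusted p under 0.01 there were 490 higher and 1859 lower in siTDP-43 cells, 749 and 969 in N352S cells, and 674 and 1251 for the contrast. In a fit of the edited cells alone, 901 were higher and 990 lower in N352S cells. With 1 library left out, the knockdown counts ranged from 664 to 1073 higher and from 2504 to 3438 lower, those of N352S cells from 815 to 1563 and from 1009 to 2194, and those of the contrast from 884 to 1458 and from 1630 to 2273. Without siTDP-43 replicate 3 the knockdown had 664 higher, and without wild type replicate 79 N352S cells had 815 higher and 1009 lower. Causes were not tested. TPM give no depth, so the precision of low genes such as ACHE and PRKCD is unknown.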
